A study of Mus musculus with 10 samples.

Results

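A set of 384 genomic regions was examined in which RUNX1 peaks were called in every library of TGFβ-treated mouse biliary cells and in none of the vehicle libraries. The regions came from merging the peaks of all 6 RUNX1 ChIP-seq libraries wherever they overlapped by 1 bp or more, which gave 64286 regions. Chromosome 5 regions starting from 3 to 20 Mb were left out by the selection rule, leaving 59292 regions, of which the 384 made up 0.648%. The members were chosen by the calls themselves: a peak in TGFβ replicates 1, 2 and 3, and no peak in vehicle replicates 1, 2 and 3. The count and the absence of vehicle peaks are therefore descriptions and carry no test.

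RUNX1 is a DNA-binding transcription factor of the Runt family that works as a heterodimer with CBFβ and can activate or repress genes depending on its cofactors. TGFβ signals through serine/threonine kinase receptors to SMAD proteins, which bind DNA weakly on their own and depend on partner factors, RUNX proteins among them, for where they act. In cholangiocytes, the epithelial cells of the bile ducts, TGFβ is known for growth arrest and for a matrix-producing response in biliary fibrosis.

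The cells were mouse large biliary epithelial (MLE) cells, which model the lining of the larger bile ducts. Cells near confluence received TGFβ at 10 ng/mL overnight in one group and vehicle in the other, and chromatin was recovered with a polyclonal RUNX1 antibody. Each treatment had 3 ChIP libraries, replicates 1 and 2 from batch 1 and replicate 3 from batch 2. The labels do not say whether the batch 1 libraries of one treatment were separate cultures, and peak lists hold no expression values with which to check the cell type.

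The lists differed by batch and in length before any region was selected. Outside the chromosome 5 segment the TGFβ lists held 32696, 41202 and 15654 peaks (replicates 1 to 3) and the vehicle lists 14418, 20995 and 12883. Batch 2 peaks were narrower, with median widths of 338 bp (TGFβ) and 307 bp (vehicle) against 525 to 739 bp in batch 1. Read totals are unknown from the lists, but the commonest local background could be solved from the fold and p of peaks with a −log10 p under 50 and was close in all 6 libraries, from 10.4 to 11.8 overlapping fragments. At that background the smallest vehicle peaks had 23, 24 and 25 fragments at the summit, a fold enrichment of 2.05, 2.00 and 1.99 in replicates 1, 2 and 3. A region without a vehicle call is known only to have failed the peak caller there, a limit set by such values and by the caller's length requirement.

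In the opposite direction, 3 regions were called in all vehicle and no TGFβ lists (0.00506% of the 59292), and 3983 regions were called in all 6 lists (6.72%). The size of the TGFβ-only set depended on 2 libraries in particular. Without TGFβ replicate 3 it grew to 10030 regions, and without vehicle replicate 2 to 980. Of the 7649 regions called in all 3 TGFβ lists, 52.1% were called in 3 vehicle lists, 34.1% in 2, 8.82% in 1 and 5.02% in none.

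The 384 regions varied widely in strength in batch 1, and most ranked low in batch 2. The fold given by the authors' peak caller is the signal at the summit over the local background. In TGFβ replicate 1 it ran from 1.81 to 23.7 across the members, with a median of 3.97. In TGFβ replicate 2 it ran from 1.70 to 28.1, with a median of 4.82. In TGFβ replicate 3 the range was 1.97 to 5.32 and the median 2.60. Over all peaks of the same lists outside the chromosome 5 segment the medians were 3.24, 3.39 and 2.68. The median member thus lay above the list median in batch 1 and slightly below it in batch 2.

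**Figure D1:**
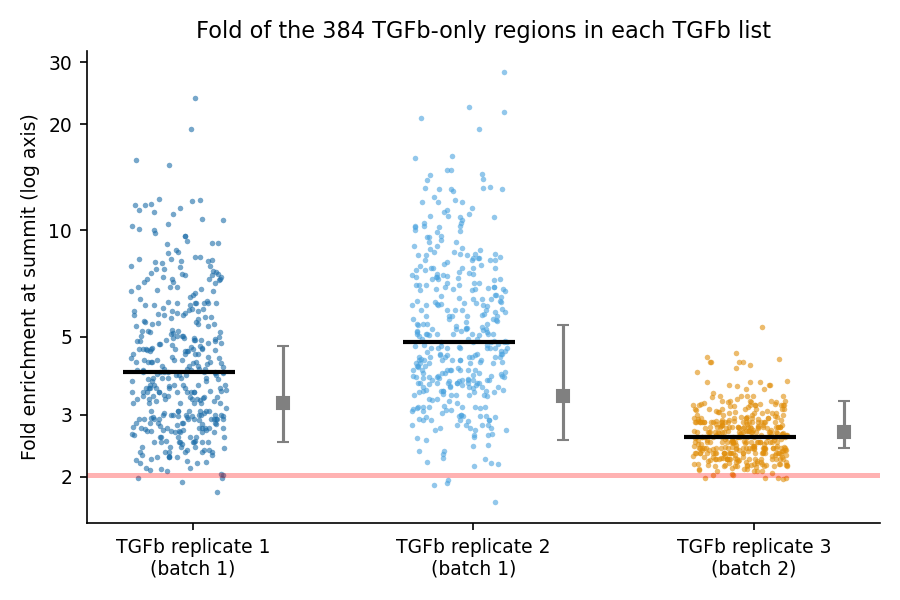
Fold enrichment at the summit (log axis) of the 384 TGFβ-only regions in each TGFβ list, one point per region, with the median as a black line. Grey squares with bars give the median and quartiles of all peaks of that list outside the chromosome 5 segment, and the red band spans the smallest folds called at the commonest background in the 3 vehicle lists (1.99 to 2.05). Batch 1 medians of 3.97 and 4.82 stand above the batch 2 median of 2.60.

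Each list was also ranked by −log10 q, here with the peaks of the chromosome 5 segment included. With the segment the TGFβ lists held 33601, 42050 and 18790 peaks (replicates 1 to 3), against 32696, 41202 and 15654 outside it. The segment thus made up a larger part of the replicate 3 list, and its effect on the percentiles was not tested. The median member stood at the 65.2 percentile in TGFβ replicate 1, at 71.6 in replicate 2 and at 37.5 in replicate 3. A percentile of at least 50 was reached by 261 members (68.0%) in replicate 1, 322 (83.9%) in replicate 2 and 132 (34.4%) in replicate 3. All 3 percentiles were at least 50 in 101 members (26.3%) and at least 75 in 21 (5.47%). A fold of at least 4.10, which is 2 times the highest of the smallest vehicle folds at the commonest background, was reached by 180 members (46.9%) in TGFβ replicate 1, 246 (64.1%) in replicate 2 and 9 (2.34%) in replicate 3. The batch 2 call is thus the one nearest to the threshold. A −log10 q under 2 was found for 59 members (15.4%) in TGFβ replicate 3, against 8 (2.08%) in replicate 1 and 2 (0.521%) in replicate 2. The whole lists also differed there. A −log10 q of 2.01 stood at the 10.9 percentile in replicate 3, 1.98 at 5.92 in replicate 1 and 2.05 at 8.04 in replicate 2.

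The fragment numbers behind these folds were small in batch 2. The median member had 50 overlapping fragments at its summit in TGFβ replicate 1, 58.5 in replicate 2 and 31 in replicate 3. The highest had 291, 319 and 69. Members seldom sat on raised background: it exceeded 1.5 times the commonest value of the list in 13, 9 and 4 of the 384.

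Members kept their order between the batch 1 libraries and only loosely across batches. Spearman's rho of the fold across the 384 regions was 0.90 between TGFβ replicates 1 and 2, 0.23 between 1 and 3, and 0.25 between 2 and 3. These points share libraries and background scaling, and the required call narrows the range in replicate 3. TGFβ replicate 2 had the higher fold of the batch 1 libraries in 329 members (85.7%), and replicate 3 the lowest of the 3 in 326 (84.9%). The median ratio of fold was 1.26 for replicate 2 over 1, and 0.658 for replicate 3 over 1.

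The strongest members were ranked by the lowest of their 3 percentile ranks, which by itself puts regions high in all TGFβ libraries first. The first, chr13:103078684-103080929, is 2246 bp wide and reached folds of 9.22, 12.9 and 5.32 (TGFβ replicates 1 to 3, the order used throughout). It held 133, 146 and 69 fragments at the summits and is the one member with a fold of at least 5 in replicate 3. Its percentile ranks of 95.4, 96.1 and 95.8 were nearly level across the batches, and no vehicle peak lay within 35286 bp.

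The next, chr16:31416877-31417889, had folds of 7.38, 11.1 and 4.33, with 90, 126 and 49 fragments. A vehicle peak lay 3898 bp away from it. The third, chr7:19049777-19051633, had the highest batch 1 folds of all members, 23.7 and 28.1, and a fold of 4.24 in replicate 3. Its 291 and 319 fragments in batch 1 compare with 48 in batch 2, and its percentile was 99.7 in both batch 1 libraries and 87.8 in batch 2. A vehicle peak lay 2138 bp from its edge.

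The next regions in rank, on chromosomes 9 and 10, stood far from vehicle peaks. At chr9:121222285-121223328 the folds were 7.62, 13.1 and 4.24, the summits of the 3 libraries fell within 39 bp, and the nearest vehicle peak was 78593 bp away. At chr10:115421551-115423210 the folds were 9.65, 13.9 and 4.16 and the summits fell within 68 bp. That region had 0 other merged regions within 100 kb, and its nearest vehicle peak was 200226 bp away. The chromosome 9 region had 5 other regions that near, and the chromosome 16 region 20.

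Regions 6 to 9 of this ranking lay on chromosomes 2, 15, 19 and 2. At chr2:27731914-27733893 the folds were 7.46, 9.56 and 3.74, and the 3 summits fell within 14 bp. At chr15:50263299-50264583 they were 7.55, 9.97 and 3.97. At chr19:5516569-5519399, the widest of the 12 at 2831 bp, they were 10.1, 14.5 and 3.16, over a background of 19.0 fragments in replicate 3 and with a region called in all 6 lists 3333 bp away. That site is the one among the 12 in the most crowded surroundings, with 35 other regions within 100 kb. At chr2:168469635-168471201 the folds were 7.67, 10.3 and 3.61, with summits within 26 bp.

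The last of the 12 included the 2 narrowest. At chr11:69334029-69334789, 761 bp wide, the folds of 5.64, 6.52 and 4.22 were the most alike across batches. At chr2:168307280-168308475 they were 8.27, 11.0 and 3.72, and the summit of TGFβ replicate 1 stood 296 bp from that of replicate 2. At chr9:63974849-63975498 they were 6.57, 9.56 and 3.72, and the summits of all 3 libraries fell within 3 bp. In each of the 12 regions replicate 2 had the highest fold and replicate 3 the lowest.

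**Figure D2:**
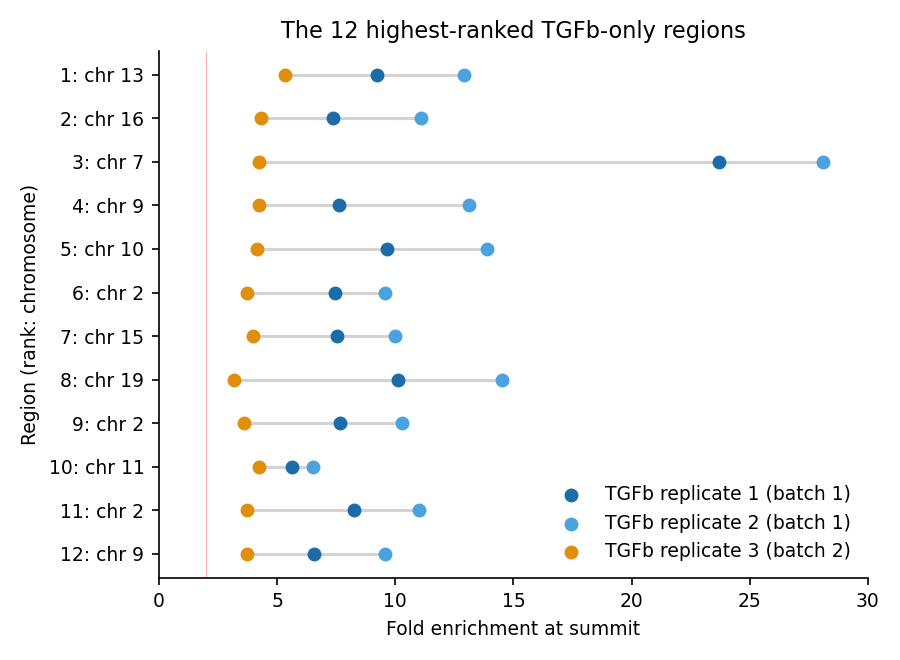
Fold enrichment at the summit of the 12 TGFβ-only regions whose lowest percentile rank was highest, ordered by rank from the top and labelled by chromosome, with one point per TGFβ library and a thin red band at the smallest vehicle folds called at the commonest background (1.99 to 2.05). The batch 2 library gives the lowest fold in every row, from 3.16 to 5.32, and the chromosome 7 region is set apart by its batch 1 folds of 23.7 and 28.1.

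Ranking by batch 2 alone brought forward a pair of narrow sites on chromosome 1. The highest folds in TGFβ replicate 3 belonged to the chromosome 13 region above, then to chr1:82924042-82924438 and chr1:82890987-82891488, then to the chromosome 16 region. The next place was shared at a fold of 4.24 by the chromosome 9 and 7 regions and by chrY:90821334-90821698, each with 48 fragments. The chromosome Y site had 55, 44 and 48 fragments over backgrounds of 24.5, 22.8 and 10.5. Its higher fold in replicate 3 thus came with a lower background and not with more fragments than in replicate 1. The first of the chromosome 1 pair is 397 bp wide, its folds were 3.40, 7.01 and 4.50, and its 3 summits lay within 30 bp. The second is 502 bp wide, with folds of 5.18, 6.77 and 4.36 and summits within 70 bp. In TGFβ replicate 1 the narrower of them stood at the 53.3 percentile only, while replicate 3 placed it at 90.2. No vehicle peak lay within 72821 bp of either.

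Values at the edge of the rule show how closely some members passed. The lowest −log10 q of any member in any TGFβ list was 1.09, at chrY:90814714-90815811 in TGFβ replicate 2. Next came chr19:17119833-17121731, with 1.13 in replicate 3, and chr19:24032232-24034015, with 1.14 in replicate 3. Just outside lay chr6:97181497-97183667, called in vehicle replicate 2 with a −log10 q of 1.01 and otherwise in the TGFβ lists with folds of 2.59, 3.51 and 2.86. The others nearest to the limit were chr15:25645377-25646741 (vehicle −log10 q of 1.08, TGFβ folds of 5.19, 5.08 and 2.33) and chr2:91837929-91840097 (1.21, with 4.58, 5.53 and 2.56). In all, 675 regions were called in the TGFβ lists and 1 vehicle list. That list was vehicle replicate 2 in 596 of them, and 36 of the 675 had a vehicle −log10 q under 2.

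Merged members were intermediate in width. Their median was 1217 bp, with quartiles of 897 and 1678 bp. The median was 521 bp over all regions, 774 bp over the 9644 regions called in TGFβ replicates 1 and 2 only, and 2065 bp over regions called in all 6 lists. Merging more lists widens a region, so these widths are not like for like. Within the members the TGFβ replicate 1, 2 and 3 peaks had median widths of 764.5, 1127.5 and 300 bp, and the batch 2 peak was usually a short interval inside a longer batch 1 peak. The narrowest member, chr1:83038717-83039049, measured 333 bp. The widest, chr6:147880081-147884296, measured 4216 bp and had folds of 5.09, 8.91 and 3.19. Widths over 2000 bp were found in 51 members (13.3%).

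Summit positions coincided within batch 1 and scattered across batches. TGFβ replicates 1 and 2 placed their strongest summits a median of 42.5 bp apart, and within 100 bp in 285 members (74.2%). Over all regions these values were close to that, at 45 bp and 70.4%. Replicate 3 summits lay a median of 221 bp from replicate 1 and 202 bp from replicate 2, the latter against 134 bp over all regions. All 3 fell within 100 bp in 71 members (18.5%), against 28.4% over all regions and 32.6% of the regions called in all 6 lists. The replicate 3 summit was covered by a batch 1 TGFβ peak in 354 members (92.2%). Peaks of all 3 pairs of libraries overlapped each other directly in 340 members (88.5%), and the remainder were joined through the peak of another TGFβ library.

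The batch 2 calls that completed the selection are described next, beside those of the other batch 1 patterns, and support nothing about the members. By the batch 1 calls alone, 10096 of the 59292 regions (17%) had a peak in TGFβ replicates 1 and 2 and none in vehicle replicates 1 and 2. Among these, 384 (3.8%) were called in batch 2 with TGFβ only, which are the members. Another 42 (0.416%) were called in batch 2 with vehicle only, 26 in both and 9644 in neither. The ratio of the 384 to the 42 is 9.14, and its numerator is the set the rule chose. Over all regions 9362 (15.8%) were called in TGFβ replicate 3 alone of the batch 2 pair and 7020 (11.8%) in vehicle replicate 3 alone, a ratio of 1.33. Batch 2 has 1 library per treatment, so these ratios compare libraries and have no replicate check.

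Regions with batch 1 vehicle calls also had more TGFβ-only than vehicle-only calls in batch 2. Among the 11191 regions called in all 4 batch 1 lists, 2367 (21.2%) were called in batch 2 with TGFβ only and 330 (2.95%) with vehicle only, a ratio of 7.17. Among the 13241 regions without a batch 1 call the ratio was 0.886. The difference between the ratios of 9.14 and 7.17 was not tested.

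Members were more frequent at higher batch 1 fold. The 10096 regions were split into 5 groups of nearly equal size by the geometric mean fold of TGFβ replicates 1 and 2. In the lowest group, with folds from 1.54 to 2.56, 21 regions (1.04%) were members. The next groups held 31 (1.53%), 52 (2.58%) and 68 (3.36%). The top group, with folds from 4.12 to 25.8, held 212 (10.5%), so that more members came from it than from the other groups together. Vehicle-only calls in batch 2 stayed between 0.149% and 0.543% across the groups. The groups hold only regions chosen for having no batch 1 vehicle call, and batch 2 calls chose the members. The contrast of the 2 shares therefore carries no test. Median region width increased alongside, from 606 bp in the lowest to 1089.5 bp in the top group, and its part in the result was not tested.

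**Figure D3:**
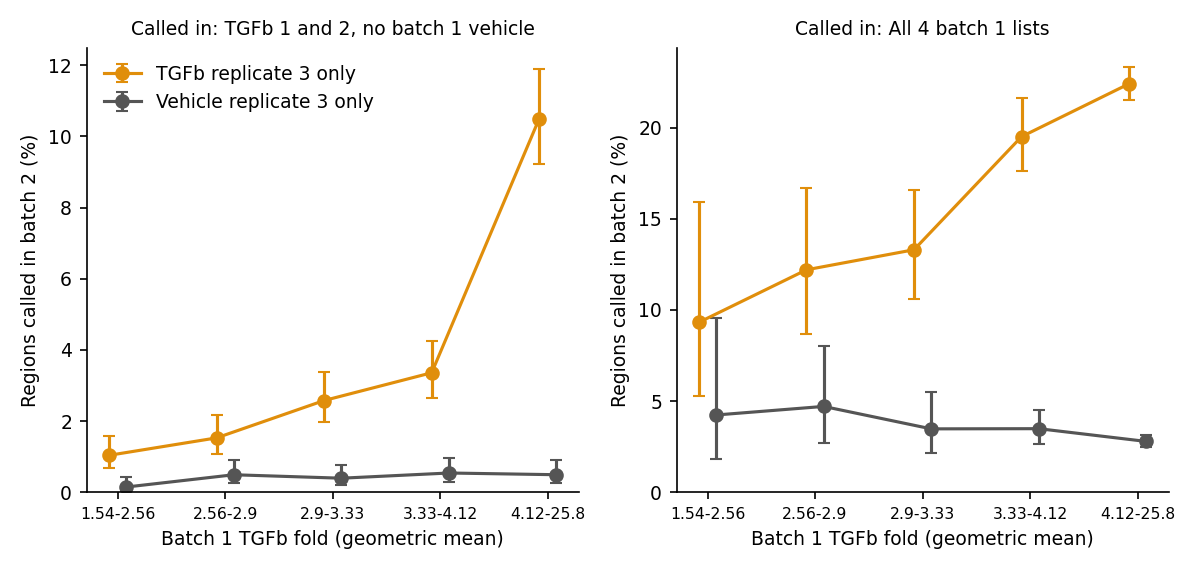
Share of regions called in batch 2 with TGFβ only (orange) or vehicle only (grey), by the batch 1 TGFβ fold, with 95% Wilson intervals that cover counting error only; the left panel holds regions called in TGFβ replicates 1 and 2 and no batch 1 vehicle list, whose orange points are the 384 members, and the right panel regions called in all 4 batch 1 lists. The vertical axes differ. The left-panel regions were chosen for having no batch 1 vehicle call, so the contrast of its shares carries no test. On the left the TGFβ share climbs from 1.04% to 10.5%, and on the right from 9.32% to 22.4%.

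In the same batch 1 fold ranges, regions also called under vehicle in batch 1 were called more often in batch 2. Folds were not matched within a range, and the top range is wide, from 4.12 to 25.8. In the lowest range, 1.54 to 2.56, 78.0% of 118 such regions had no batch 2 call. The share was 98.4% of 2014 regions without a batch 1 vehicle call. In the top fold range, 22.4% of 8759 regions called in all 4 batch 1 lists were TGFβ-only in batch 2, 39.7% were called in both batch 2 libraries and 35.2% in neither. The corresponding shares of the regions without a batch 1 vehicle call were 10.5%, 0.248% and 88.8%. Most batch 1 TGFβ-specific regions of high fold were therefore without a batch 2 call in either treatment, and the members are the minority that had one. The shared regions were also wider, with a median of 1777 bp in that range.

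Members were spread over every numbered chromosome, close to the spread of all regions. Chromosome 1 held 45 of them (11.7%, against 10.2% of all regions), chromosome 2 held 41 (10.7%, against 11.0%), chromosome 6 held 35 (9.11%, against 8.68%) and chromosome 19 held 30 (7.81%, against 7.83%). The largest gap upward was on chromosome 9, with 18 members (4.69%) against 2.99% of all regions, or 1.02 members per 100 regions (95% Wilson interval 0.644 to 1.6). Chromosome 13 had 16 members (4.17%) against 5.39%. The genome-wide rate of 0.648 lay within the intervals of all numbered chromosomes and X.

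Chromosome X held 1 member, chrX:73009840-73011453, with folds of 3.32, 4.47 and 4.07. Chromosome Y had 2 of its 14 regions in the set, at chrY:90814714-90815811 and chrY:90821334-90821698. The vehicle neighbours of the chromosome Y members lay 230 and 417 bp away. The folds of these members in TGFβ replicate 2, 1.70 and 1.89, were the lowest of all members in that library. Unplaced sequences and the mitochondrial genome held 0 members among 71 regions.

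**Figure D4:**
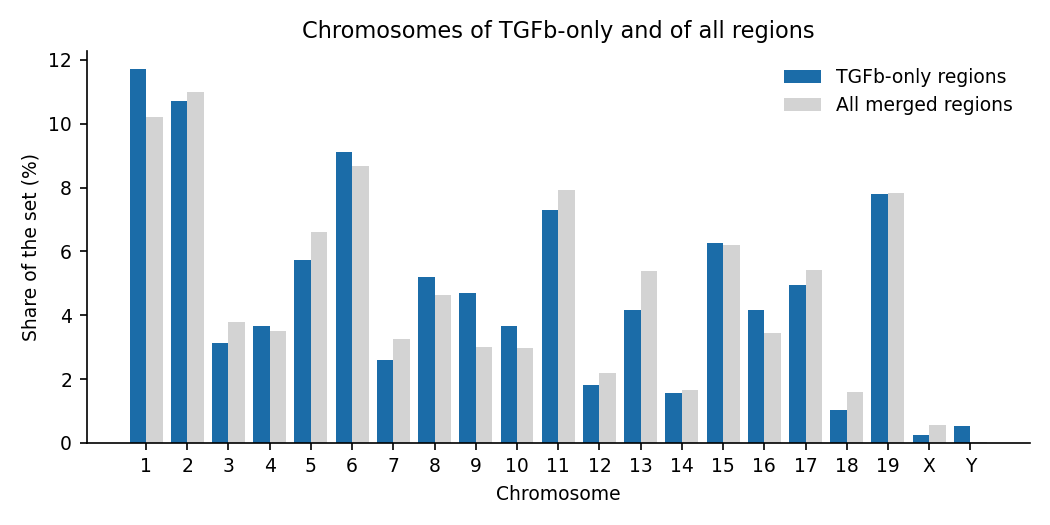
Percent of the 384 TGFβ-only regions (blue) and of all 59292 merged regions (grey) on each chromosome. On the numbered chromosomes the 2 sets follow each other closely, with 11.7% against 10.2% on chromosome 1 and 4.69% against 2.99% on chromosome 9. Chromosome Y holds 0.521% of members against 0.0236% of all regions.

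Most members had no other member within 100 kb, and most had merged regions of other kinds that near. All regions far outnumber the members, so these spacings are not like for like. Of the 384, 67 (17.4%, 95% Wilson interval 14.0 to 21.6) had another member within 100 kb between summits, in 30 pairs, 1 group of 3 and 1 group of 4. Within 20 kb there were 12 pairs and no larger group. The median member had 12 other merged regions of any kind within 100 kb, against 9 over all regions and 10 over those called in all 6 lists. No other region was that near for 1.04% of members, 2.45% of all regions and 1.18% of those called in all 6 lists.

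Both larger groups lay on distal chromosome 2. The group of 4 spanned 173122468 to 173256510. Its strongest site, chr2:173162345-173164171, had folds of 12.3, 19.4 and 3.38 over 151, 220 and 43 fragments. The site at its distal end, chr2:173255409-173256510, had 9.22, 10.0 and 2.81, with the 3 summits within 12 bp. The others, chr2:173122468-173124392 and chr2:173175871-173176907, were weaker in batch 1, with folds of 4.0 and 4.29, and of 2.59 and 3.8. In batch 2 the folds of the 4 sites ran from 2.43 to 3.38, at percentiles of 29.2 to 76.4 of the replicate 3 list. Vehicle peaks lay 1807 to 37020 bp from these sites, so sites called under vehicle lay close to some of them.

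The group of 3 consisted of chr2:168421169-168422683, chr2:168462429-168464475 and the ninth-ranked chr2:168469635-168471201. The folds were 4.55, 4.65 and 2.60 at the first site, 5.43, 7.71 and 2.60 at the middle one, and 7.67, 10.3 and 3.61 at the last. The eleventh-ranked region, chr2:168307280-168308475, lies proximal to it and just beyond the 100 kb limit. The nearest vehicle peaks lay 29306 to 77772 bp from the 3 sites.

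The chromosome 7 region had one member nearby, chr7:18999871-19000733, proximal to it, with folds of 3.65, 3.77 and 3.20. In this pair the batch 1 folds of the sites were far apart. The batch 2 folds were 3.20 and 4.24, at the 67.2 and 87.8 percentiles of the replicate 3 list. The sixth-ranked region on chromosome 2 was likewise paired with a weaker site, chr2:27805947-27807130, with folds of 2.27, 3.48 and 2.56.

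Few members lay directly beside a vehicle peak. A vehicle peak lay within 1 kb of 19 members (4.95%, 95% Wilson interval 3.19 to 7.60), within 5 kb of 88 (22.9%) and within 10 kb of 135 (35.2%). The median distance was 16926 bp. For the 9644 regions called in TGFβ replicates 1 and 2 only, the shares within 1 kb and 10 kb were 7.65% and 40.8%, and for all 31784 regions without a vehicle call 11.1% and 45.0%. Within 20 kb the shares were 56.0% of members, 57.1% and 60.1%. Farther out the order turned, with 81.8% of members against 78.3% and 79.7% within 50 kb, and 92.4% against 89.2% and 90.3% within 100 kb. Distances run between edges, and any region touching a vehicle peak is left out of these sets. The sets also differ in width, with medians of 1217, 774 and 406 bp, and the part of width in these shares was not tested. The nearest region called in all 6 lists was a median of 113856 bp from a member, and 116625 bp over all regions.

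**Figure D5:**
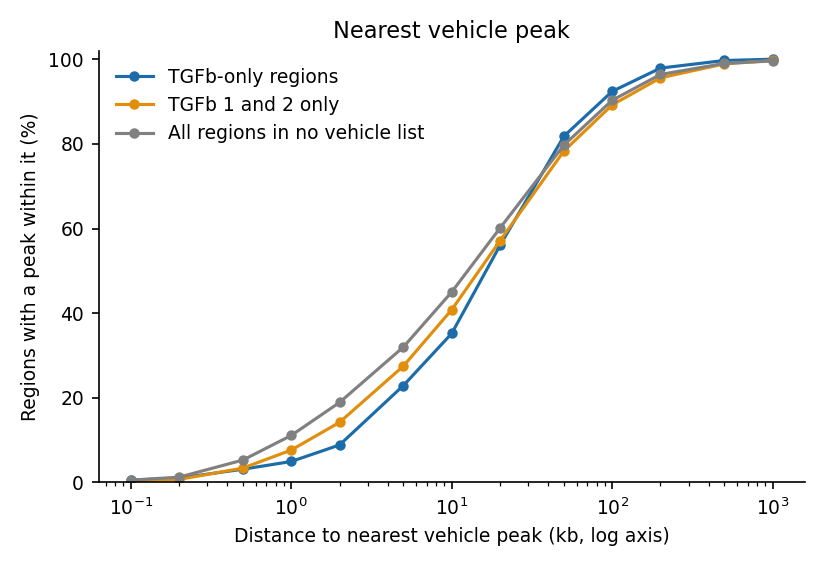
Cumulative share of regions with a vehicle peak within a given distance (log axis, in kb) for the 384 TGFβ-only regions (blue), the 9644 regions called in TGFβ replicates 1 and 2 only (orange) and all 31784 regions in no vehicle list (grey). The blue curve is lowest at 1 to 10 kb, with 4.95% at 1 kb and 35.2% at 10 kb. From 50 kb it is the highest, with 81.8% against 78.3% and 79.7%. Distances run between edges, and the sets differ in median width.

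Genes, promoters and motifs at these regions were not analysed here, because the gene and promoter tables in hand are of GRCm38 while the peaks are on GRCm39.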

How the data were processed

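Each of the 6 RUNX1 ChIP libraries has one deposited narrowPeak list. Per the submitters' processing notes, Trimmomatic, Bowtie2 2.5.2, MACS2 and DRAGEN were used with the build mm39 (GRCm39). The control library, the options and any filter are not given in the sources used here. Each deposited row carries a score, the summit's fold enrichment (a ratio) and its p and q on the −log10 scale. The lowest −log10 q of each list lay at or just above 1, which corresponds to a limit of q = 0.1. The 4 input libraries were not analysed here.

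Peaks overlapping by at least 1 bp were merged across lists (Python 3.11.15, pandas 2.3.3), and a region counted as called where a list had a peak in it. The strongest peak by −log10 q stood for a library. Coordinates are 1-based. Fragments and background were solved from fold = (fragments + 1)/(background + 1) and the Poisson upper tail, within 0.001 on the −log10 p scale (SciPy 1.17.1), for all member peaks and, over whole lists, for peaks with a −log10 p under 50, and code was tested on simulated data. No test was run, since the calls chose the members. Intervals are 95% Wilson intervals and cover counting error only. Regions named are the 12 with the highest value of the lowest of 3 percentile ranks, the 5 with the highest fold in TGFβ replicate 3, groups of 3 or more within 100 kb, and the 3 regions on each side of the threshold. The pair partners, the extremes of width and the sex chromosome regions were chosen after their values were seen. The members and lists were chosen with earlier results of these data known. The planned named regions by gene start and by gene list, and the planned marker check, were not run.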

Additional observations from a re-analysis of the deposited data

How the results depend on the processing

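The main count was 384. Peaks limited to a −log10 q of 5 or more left 190, of which 84 overlapped the members. Lists of equal length gave 245 (156 overlapping) and summit windows of 200 bp gave 241 (184 overlapping). Vehicle-only regions, 3 in the main count, numbered 0, 52 and 35 in these settings. Batch 1 alone, which leaves out replicate 3 of both treatments, gave 10099. Dropping only vehicle replicate 3 gave 407. Leaving out 1 library gave 391 to 10030, with the top value when TGFβ replicate 3 was dropped. Dropping vehicle replicate 2 gave 980. The share with another member within 100 kb (17.4%) was 11.1%, 8.98%, 13.3% and 79.1% in the same 4 settings, 17.2% to 78.9% without 1 library, 6.25% at 20 kb and 34.1% at 500 kb. The cause of the lower counts and shares under the −log10 q, equal-length and summit-window settings was not tested. The median width (1217 bp) was 325 bp with summit windows, which fix the width, 786 bp in batch 1 alone and 785 to 1282 bp without 1 library. Keeping the chromosome 5 segment (398), numbered chromosomes and X only (382) and peaks no wider than 2000 bp (343) changed the count by less than 1.5 times. So did 2 settings chosen after the data were seen: no vehicle peak within 1 kb (365) and direct overlap of all 3 pairs of TGFβ peaks (340). TGFβ-only regions outnumbered vehicle-only regions in every setting where both were counted. The calls themselves give these counts, so the direction carries no test. Only the equal-length setting evened out the list lengths, and there the counts were 245 and 52. The planned results on gene starts and on the RUNX core were not run for want of a GRCm39 annotation and sequence. No paired analysis was possible because the results come from no test and the labels pair no single libraries within batch 1. Read totals are unknown, so what depth limits was not tested. The median member has 31 fragments at its summit in TGFβ replicate 3.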

Other observations

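A stretch of chromosome 1 held 4 members, chosen here after their values were seen. Besides the narrow sites at chr1:82890987-82891488 and chr1:82924042-82924438, it had the narrowest member, chr1:83038717-83039049, with folds of 2.68, 4.03 and 2.88 in TGFβ replicates 1, 2 and 3. The last was chr1:83134060-83135204, with folds of 4.74, 6.40 and 2.18. In the first 3 of these the summits of all TGFβ libraries fell within 89 bp, and no vehicle peak lay within 40427 bp.

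In the chromosome 5 segment that the selection left out, 14 of 4994 regions (0.280%) had the same pattern of calls. Their median folds were 1.86, 2.22 and 1.99 in TGFβ replicates 1, 2 and 3, with none above 4.71.

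Of the 3 regions called with vehicle only, chr11:102241890-102242655 was the strongest, at folds of 3.51, 5.41 and 2.40 (vehicle replicates 1 to 3). At chr13:64033899-64034685 the folds were 2.49, 2.21 and 2.76, and at chr15:81853201-81853529 they were 2.18, 1.88 and 2.89.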
